A study of Solanum lycopersicum with 6 samples.

Results

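MBP3, AGL11 and TAG1 are 3 MADS-box transcription factor genes of the AGAMOUS clade, and they were followed by library in tomato (Solanum lycopersicum) fruit of a line labelled as an SlLBD40 knockout and of wild type. They were selected by identifier alone, Solyc06g064840 for MBP3, Solyc11g028020 for AGL11 and Solyc02g071730 for TAG1, from a table of 40229 gene models, and all 3 were found in it. The table describes Solyc11g028020 as tomato AGAMOUS-like 11 and Solyc02g071730 as tomato AGAMOUS 1. Solyc06g064840 carries only the family description of an AGAMOUS-like MADS-box transcription factor, so the name MBP3 does not come from the table.

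The data are RNA-seq profiles of fruit at 25 days after anthesis. There were 3 libraries from the line labelled SlLBD40-KO, in which the LATERAL ORGAN BOUNDARIES domain transcription factor gene SlLBD40 was knocked out, and 3 from wild type (WT), the dwarf cultivar Micro-Tom. The labels name no agent and no second allele, and they describe the tissue as fruit without saying whether seeds or locular gel were removed. They speak of biological replicates without saying whether these were separate plants, and whether the mutant is 1 line or several is not given in the sources used here.

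MADS-domain proteins bind DNA as dimers and work in larger complexes that SEPALLATA proteins help to hold together. In the model of flower development, C-class genes such as TAG1 specify stamens and carpels and end the growth of the floral meristem, and D-class genes such as AGL11 and MBP3 specify ovules. In tomato the D-class pair is known for expression in the ovules, the developing seeds and the tissue around them, and MBP3 for its part in forming the gel that fills the locules.

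The values of each library summed to between 987932 and 994646 and were taken as transcripts scaled to 1e+06 in each library (TPM). This unit keeps no sequencing depth, so the precision of single values is unknown. Of the 40229 gene models, 18368 passed the filter of at least 1 TPM in at least 3 libraries, among them all 3 genes. The gene taken from memory as SlLBD40 (Solyc02g085910) stood at 0.77, 2.51 and 3.85 TPM in SlLBD40-KO and at 1.57, 5.35 and 1.90 TPM in WT. These overlapping levels do not check which libraries are mutant. Sequencing lanes given in the labels hold 1 genotype each, so lane and genotype cannot be told apart in any comparison here. The libraries are numbered by the table's columns, and the numbers pair nothing.

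The D-class genes MBP3 and AGL11 varied widely between libraries and varied together, while the C-class gene TAG1 stood within a narrow range among the SlLBD40-KO libraries. MBP3 had 2.13, 58.3 and 0.23 TPM in SlLBD40-KO 1 to 3, against 37.4, 13.1 and 20.2 TPM in WT 1 to 3. The mutant libraries held both the highest and the lowest value, with SlLBD40-KO 2 above every WT library and SlLBD40-KO 1 and 3 below every one. Within SlLBD40-KO the highest value was 253-fold above the lowest, against 2.86-fold within WT. In bulk libraries such as these, fewer cells of a type and less RNA per cell cannot be told apart.

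AGL11 had 1.30, 24.0 and 0.37 TPM in SlLBD40-KO, against 21.5, 3.53 and 3.52 TPM in WT. The order of the mutant libraries was that of MBP3, with SlLBD40-KO 2 high and SlLBD40-KO 3 lowest, and WT 1 was the highest WT library for both genes. The highest mutant value was 64.95-fold above the lowest, and the highest WT value was 6.11-fold above the lowest.

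TAG1 had 57.4, 63.2 and 49.9 TPM in SlLBD40-KO, against 29.5, 42.7 and 63.3 TPM in WT. The mutant libraries lay within 1.27-fold of each other and the WT libraries within 2.15-fold. WT 1, which held the most MBP3 and AGL11 of the WT libraries, held the least TAG1 of all 6.

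**Figure D1:**
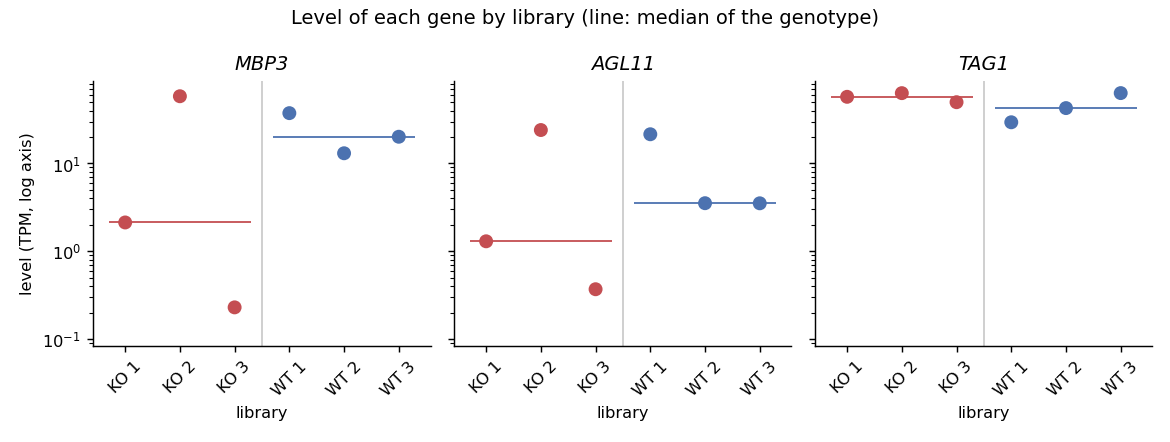
Level of MBP3, AGL11 and TAG1 in each library, in TPM on a log axis; points are libraries, red for SlLBD40-KO and blue for WT, and lines are medians of the genotype. MBP3 and AGL11 run from 58.3 to 0.23 TPM and from 24.0 to 0.37 TPM within SlLBD40-KO, while TAG1 stays between 49.9 and 63.2 TPM there.

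On the log2(TPM + 1) scale the standard deviation of MBP3 was 2.92 among the SlLBD40-KO libraries, larger than that of 99.6% of the 18368 genes tested. It was 0.73 among the WT libraries, larger than that of 83.05% of genes. For AGL11 the standard deviation was 2.24 in SlLBD40-KO, above 99.0% of genes, and 1.34 in WT, above 95.6%. For TAG1 it was 0.17 in SlLBD40-KO, above 14.5% of genes, and 0.54 in WT, above 70.9%. The median gene had a standard deviation of 0.40 in SlLBD40-KO and 0.37 in WT. Whether the spread of a gene differs between genotypes was not tested.

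Limma was fitted across all 18368 genes on log2(TPM + 1) to ask which of the genes differ between genotypes. Of the 3 genes, 0 were called at an adjusted p under 0.05 and 0 reached an unadjusted p under 0.05, where 0.0926% and 17.5% of all genes did. MBP3 averaged 20.2 ± 33.0 TPM in SlLBD40-KO and 23.6 ± 12.5 TPM in WT (SD, n = 3 each). The 95% interval of its log2 fold change of -1.88 ran from -4.98 to 1.22, with an SE of 1.32 (limma adjusted p = 0.516). AGL11 averaged 8.57 ± 13.4 TPM in SlLBD40-KO and 9.52 ± 10.4 TPM in WT (SD, n = 3 each). For this gene the log2 fold change was -0.85, with an SE of 1.15 and an interval from -3.56 to 1.86 (limma adjusted p = 0.765). TAG1 averaged 56.8 ± 6.69 TPM in SlLBD40-KO and 45.2 ± 17.1 TPM in WT (SD, n = 3 each). Here the log2 fold change was 0.39, with an SE of 0.31 and an interval from -0.35 to 1.12 (limma adjusted p = 0.578). The groups overlapped for all 3 genes, and none of the 3 differences was larger than the spread between libraries. The intervals of MBP3 and AGL11 were several times as wide as that of TAG1. The fit takes the same spread for both genotypes, and these intervals and p-values rest on that. The standard deviations given above were larger in SlLBD40-KO for MBP3 and AGL11 and larger in WT for TAG1.

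Single libraries set the size of both D-class values. Without SlLBD40-KO 2 the log2 fold change was -3.52 for MBP3 (limma adjusted p = 0.137) and -2.12 for AGL11 (adjusted p = 0.277). Without SlLBD40-KO 3 it was -0.73 for MBP3 (adjusted p = 0.777) and -0.03 for AGL11 (adjusted p = 0.993), and without WT 1 it was -0.08 for AGL11 (adjusted p = 0.991).

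The transcripts of seed storage and oil body proteins were set beside these values. Of 52 such genes, 20 passed the filter, and their levels summed to 4989, 378 and 569 TPM in SlLBD40-KO 1 to 3, against 4697, 209 and 234 TPM in WT 1 to 3. Of the 569 TPM in SlLBD40-KO 3, 370 belonged to a single oleosin gene (Solyc06g060840). The 2S albumin gene Solyc08g080490, a storage protein of the embryo and endosperm, stood at 1675, 37.0 and 0 TPM in SlLBD40-KO and at 2171, 0.18 and 0 TPM in WT. A seed storage protein gene (Solyc03g005580) stood at 697, 12.4 and 0.55 TPM in SlLBD40-KO and at 702, 0.12 and 0.15 TPM in WT, and an 11S globulin gene (Solyc09g072560) at 824, 10.5 and 0 TPM in SlLBD40-KO and at 396, 0.17 and 0.03 TPM in WT. Of the 20 genes, 0, 0 and 6 were listed at 0 in SlLBD40-KO 1 to 3 and 0, 3 and 6 in WT 1 to 3.

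SlLBD40-KO 1 and WT 1 were the libraries rich in storage transcripts, and MBP3 stood at 2.13 TPM in SlLBD40-KO 1 and at 37.4 TPM in WT 1. SlLBD40-KO 2, with the most MBP3 and AGL11, had a storage sum of 378 TPM, beside 4989 TPM in SlLBD40-KO 1 and 4697 TPM in WT 1. Of the 378 TPM, 78.7 and 62.4 belonged to caleosin genes (Solyc01g005410 and Solyc01g005400) and 68.2 to an oil body-associated protein gene (Solyc02g071770). Solyc01g005410 also gave 86.2 of the 209 TPM in WT 2 and 140 of the 234 TPM in WT 3. The part of seed content in the D-class values was not tested beyond the following settings. The seed level was the mean log2(TPM + 1) of the storage and oil body genes that passed the filter. It was 6.27, 3.38 and 2.15 in SlLBD40-KO 1 to 3, against 5.82, 1.66 and 1.60 in WT 1 to 3. SlLBD40-KO 2 was thus above SlLBD40-KO 3 in seed level, the reverse of the order of their sums. With the seed level as a covariate the log2 fold change was -2.03 for MBP3 (limma adjusted p = 0.534) and -1.11 for AGL11 (adjusted p = 0.702). Without both storage-rich libraries it was -1.01 for MBP3 (adjusted p = 0.881) and 0.37 for AGL11 (adjusted p = 0.945), so the sign for AGL11 turned. TAG1 stood at 0.47 (adjusted p = 0.529) and 0.11 (adjusted p = 0.943) under the same settings.

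Markers of other tissues also differed between libraries. The 27 chlorophyll a-b binding protein genes that passed the filter, of the light-harvesting antenna of green tissue, summed to 1170, 1203 and 2214 TPM in SlLBD40-KO and to 2926, 593 and 803 TPM in WT. The 3 cuticle genes of the epidermis summed to 190, 230 and 22.9 TPM in SlLBD40-KO and to 134, 122 and 125 TPM in WT. SlLBD40-KO 3, with the least MBP3 and AGL11, had the lowest cuticle sum. Solyc02g085870, a very-long-chain fatty acid elongase gene, stood at 150, 200.4 and 9.56 TPM in SlLBD40-KO and at 38.3, 98.1 and 94.7 TPM in WT. The cutin synthase gene CD1 (Solyc11g006250) stood at 0.24, 1.15 and 0 TPM in SlLBD40-KO and at 75.4, 3.65 and 7.05 TPM in WT (limma adjusted p = 0.157). Its groups did not overlap, as for 24.4% of all genes, while those of the other cuticle genes did. WT 2 and WT 3 were also far below WT 1. The cutin deficient 2 gene (Solyc01g091630) stood at 39.6, 28.5 and 13.3 TPM in SlLBD40-KO and at 19.8, 20.4 and 22.9 TPM in WT. Their part in the D-class values was not tested. No list of placenta or locular gel markers independent of these genes was used.

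The levels of the 3 genes were related to each other over the 6 libraries on the log2(TPM + 1) scale. MBP3 and AGL11 had a Pearson's r of 0.929 (exact permutation p = 0.0167, two-sided, n = 6) and a Spearman's rho of 0.943 (exact permutation p = 0.0167). Adjusted over the 3 pairs, each p was 0.05, which is at the threshold and not under it. Without SlLBD40-KO 3 and SlLBD40-KO 1, the libraries farthest from the median of MBP3, r was 0.936 over 4 libraries. Over deviations from the mean of each genotype, an alternative chosen after seeing the data, r was 0.945 (exact permutation within genotypes p = 0.0556, adjusted p = 0.167). Of all other genes tested, 76, or 0.414%, had a higher r with MBP3 than AGL11 had. The points share their libraries and so any difference in tissue makeup between them.

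A relation of TAG1 with either gene was not detectable over these 6 libraries. Its Pearson's r with MBP3 was -0.14 (exact permutation p = 0.793, adjusted p = 0.793, n = 6) and its Spearman's rho 0.143 (exact permutation p = 0.803, adjusted p = 0.919). With AGL11 its r was -0.295 (exact permutation p = 0.593, adjusted p = 0.793, n = 6) and its rho -0.086 (exact permutation p = 0.919, adjusted p = 0.919). Without SlLBD40-KO 3 and SlLBD40-KO 1, the libraries farthest from the median of MBP3, r was 0.081 with MBP3. Without SlLBD40-KO 2 and WT 1, the libraries farthest from the median of AGL11, r was 0.033 with AGL11. The negative signs of r over all 6 libraries were not stable. Without WT 1, r was 0.403 with MBP3 and 0.439 with AGL11. With MBP3 the sign also turned with WT 1 kept, as in the r of 0.081 above.

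**Figure D2:**
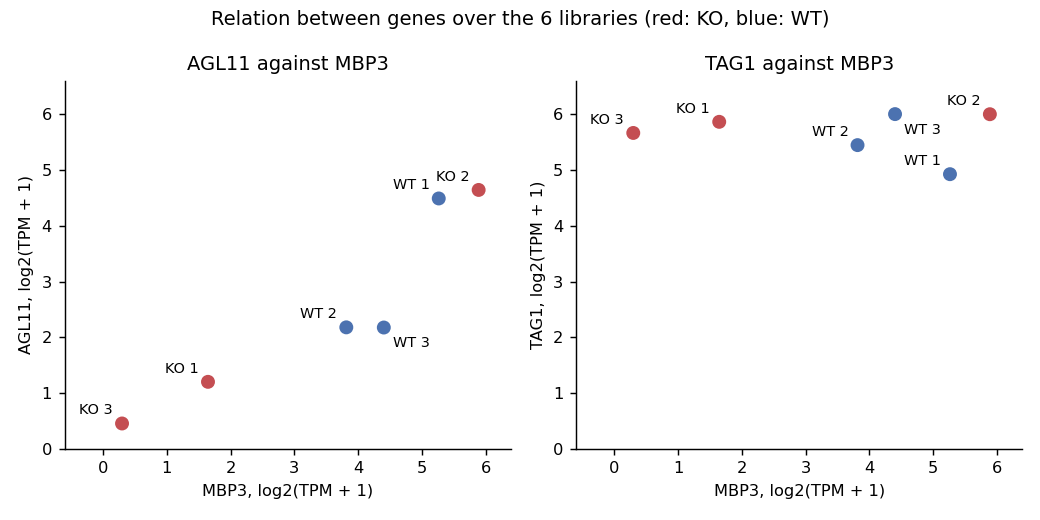
AGL11 (left) and TAG1 (right) against MBP3 in each library, all as log2(TPM + 1); red points are SlLBD40-KO and blue points are WT. The points of AGL11 lie along a rising line (r = 0.929), and those of TAG1 do not (r = -0.14).

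Because TPM is scaled by transcript length, levels can also be set against each other within a library. MBP3 was above AGL11 in 5 of 6 libraries, the exception being SlLBD40-KO 3, where both stood under 1 TPM. The ratio of MBP3 to AGL11 was 1.64, 2.425 and 0.622 in SlLBD40-KO 1 to 3, against 1.74, 3.70 and 5.72 in WT 1 to 3. On the log2(TPM + 1) scale it averaged 0.51 ± 0.70 in SlLBD40-KO and 1.54 ± 0.73 in WT, a difference of -1.03 (SD, n = 3 each; two-sided exact permutation p = 0.2, adjusted p = 0.45 over 3 ratios). No exact test of 3 against 3 libraries can go below 0.1.

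TAG1 was above AGL11 in 6 of 6 libraries and above MBP3 in 5 of 6. The level of TAG1 was 27.0, 1.085 and 217 times that of MBP3 in SlLBD40-KO, against 0.787, 3.27 and 3.14 times in WT. On the log2(TPM + 1) scale, which shrinks ratios with low values, MBP3 to TAG1 averaged -3.24 ± 2.76 in SlLBD40-KO and -0.97 ± 1.13 in WT. The difference was -2.27 (SD, n = 3 each, exact permutation p = 0.3, adjusted p = 0.45), and -3.015 with 0.1 added in place of 1. For AGL11 to TAG1 the ratio on this scale averaged -3.75 ± 2.09 in SlLBD40-KO and -2.51 ± 1.82 in WT. The difference was -1.23 (exact permutation p = 0.5, adjusted p = 0.5), and -1.78 with 0.1 added in place of 1. The groups overlapped for all 3 ratios, and each exact p was above the smallest that the design allows. None of these differences stood out from the spread between libraries, and each stays unsettled.

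TAGL1 (Solyc07g055920), the C-class relative of TAG1 that acts in fleshy fruit expansion and ripening, was the most abundant gene of the clade in 6 of 6 libraries. It stood at 175, 164 and 166 TPM in SlLBD40-KO and at 172, 241 and 220 TPM in WT (log2 fold change -0.31, SE 0.22, limma adjusted p = 0.511). Of the summed TPM of the 4 genes, MBP3 and AGL11 together took 1.45%, 26.6% and 0.277% in SlLBD40-KO, against 22.6%, 5.53% and 7.71% in WT. TAG1 took 24.3%, 20.4% and 23.0% in SlLBD40-KO, against 11.3%, 14.2% and 20.6% in WT. The D-class share thus moved far more between libraries than the TAG1 share.

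**Figure D3:**
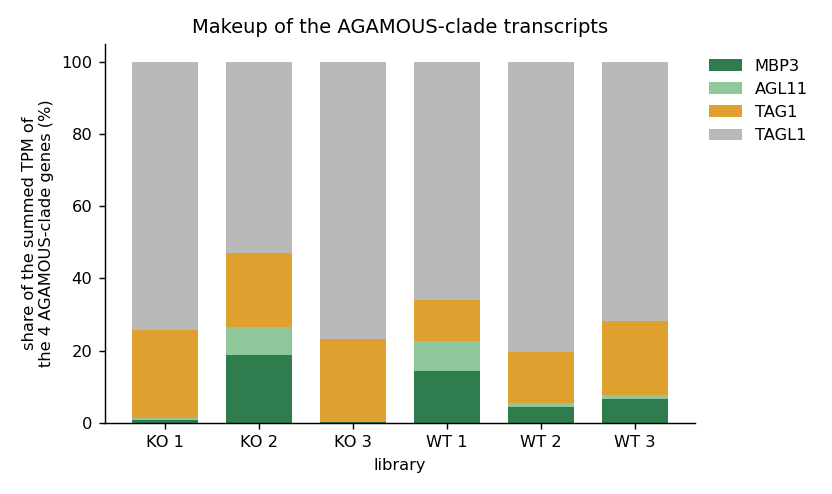
Share of each gene in the summed TPM of MBP3, AGL11, TAG1 and TAGL1, in percent, by library, with SlLBD40-KO left of WT. MBP3 and AGL11 together make up 26.6% in SlLBD40-KO 2 and 22.6% in WT 1, and 0.277% in SlLBD40-KO 3.

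The genes were then placed among 20 other floral and fruit MADS-box genes listed by identifier, of which 17 passed the filter. Limma called 0 of the 17, where 0.0926% of all genes, or 17 genes, were called. That number over all genes was 0 without SlLBD40-KO 1 or WT 3, 3 without WT 2, 9 without SlLBD40-KO 2, 11 without WT 1 and 23 without SlLBD40-KO 3. At an unadjusted p under 0.05, 2 stood higher and 2 lower in SlLBD40-KO, where 6.24% and 11.3% of all genes did. The median log2 fold change of the 17 was 0.0040, against -0.087 over all genes. The groups did not overlap for 4 of the 17, where they did not for 24.4% of all genes.

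Those 4 included both SEPALLATA genes with the highest levels, whose products help MADS-domain proteins to form complexes. TM29 (Solyc02g089200) stood at 310, 358 and 325 TPM in SlLBD40-KO, against 491, 538 and 512 TPM in WT (log2 fold change -0.63, SE 0.20, limma adjusted p = 0.176). SEPALLATA3 (Solyc05g015750), also called TM5, stood at 244, 284 and 329 TPM in SlLBD40-KO, against 346, 520 and 467 TPM in WT (log2 fold change -0.63, SE 0.25, adjusted p = 0.257). For both, every mutant library lay below every WT library, without passing the test.

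RIN (Solyc05g012020), the ripening inhibitor gene needed for full ripening, stood at 27.3, 20.9 and 113 TPM in SlLBD40-KO, against 1.53, 19.7 and 8.14 TPM in WT (log2 fold change 2.40, SE 0.89, limma adjusted p = 0.228). Its highest value was in SlLBD40-KO 3, the library with the least MBP3 and AGL11, and its lowest in WT 1. In SlLBD40-KO 2, the library with the most MBP3 and AGL11, RIN stood at 20.9 TPM, close to the 19.7 TPM of WT 2. A relation of RIN with these genes was not tested. MADS-box protein 1 (Solyc03g114840), a further SEPALLATA gene, stood at 36.8, 45.3 and 88.7 TPM in SlLBD40-KO, against 154, 61.0 and 72.6 TPM in WT (adjusted p = 0.462). Solyc12g087830, described as a MADS-box transcription factor, stood at 136, 110 and 150 TPM in SlLBD40-KO, against 76.3, 100 and 79.6 TPM in WT (adjusted p = 0.227).

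**Figure D4:**
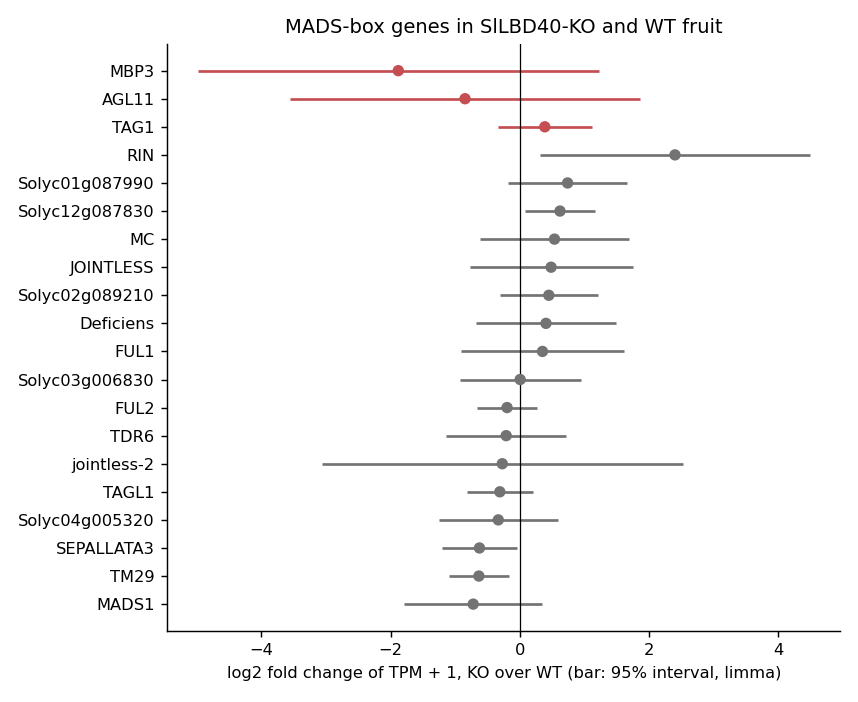
Log2 fold change of TPM + 1, SlLBD40-KO over WT, for MBP3, AGL11 and TAG1 (red) and 17 other MADS-box genes (grey), with 95% intervals from limma. MBP3 has an interval from -4.98 to 1.22 and TAG1 one from -0.35 to 1.12; genes without a name in the table are given by identifier.

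Across all genes described as MADS-box or AGAMOUS-like, the 3 genes left out, 29 of 126 passed the filter, of which 9 were also in the list of floral genes. Limma called 0 of the 29, where 0.0926% of all genes were called. At an unadjusted p under 0.05, 4 stood higher and 1 lower in SlLBD40-KO, where 6.24% and 11.3% of all genes did. The groups did not overlap for 6 of the 29, against 24.4% of all genes. The lowest p belonged to Solyc04g076680, described as a MADS-box transcription factor AGAMOUS. It stood at 8.72, 10.3 and 4.78 TPM in SlLBD40-KO, against 0.92, 1.92 and 1.05 TPM in WT (log2 fold change 1.93, SE 0.37, limma adjusted p = 0.0904). An SVP-described gene (Solyc04g076280) stood at 0.19, 0.28 and 0.70 TPM in SlLBD40-KO, against 1.44, 1.74 and 2.11 TPM in WT (adjusted p = 0.157). Solyc01g066730, a MADS-box gene without a further name, stood at 2.59, 2.16 and 1.94 TPM in SlLBD40-KO, against 0.33, 0.78 and 1.12 TPM in WT (adjusted p = 0.194).

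Regulators of ovule and carpel development formed a further list, with BEL1-like homeodomain genes, CRABS CLAW genes of the YABBY family, the corepressors LEUNIG and SEUSS and Polycomb genes such as EZ1 and EZ2. Several of these are known in Arabidopsis to restrict where AGAMOUS is expressed. Of 53 genes, 25 passed the filter, and limma called 0 of them, where 0.0926% of all genes were called. At an unadjusted p under 0.05, 0 stood higher and 2 lower in SlLBD40-KO, where 6.24% and 11.3% of all genes did. The groups did not overlap for 2 of the 25, where they did not for 24.4% of all genes. The median log2 fold change was -0.26, against -0.087 over all genes. Without WT 3 the median was -0.007 for the list and -0.002 for all genes, and without SlLBD40-KO 3 it was -0.096 for the list and 0.026 for all genes. With any other single library left out it ran from -0.376 to -0.3 for the list and from -0.173 to -0.125 for all genes. BEL1-like homeodomain protein 8 (Solyc11g069890) stood at 2.01, 3.74 and 1.50 TPM in SlLBD40-KO, against 8.64, 5.41 and 4.34 TPM in WT (limma adjusted p = 0.214). BEL1-like homeodomain protein 1 (Solyc11g068950) stood at 212, 200 and 133 TPM in SlLBD40-KO, against 222, 354 and 413 TPM in WT (adjusted p = 0.235). A LEUNIG-described gene (Solyc03g006390) stood at 4.44, 0.96 and 2.43 TPM in SlLBD40-KO, against 5.74, 3.90 and 8.53 TPM in WT (adjusted p = 0.304).

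The genes with the most similar pattern over the 6 libraries were found by Pearson's r on log2(TPM + 1), among 12987 genes with a mean of at least 5 TPM and an informative description. With so few libraries a high r arises for many genes, and these values are a description. For MBP3 the first was a SWEET gene (Solyc03g097580), of a family that carries sugars across membranes, with an r of 0.992. It stood at 28.4, 442 and 9.95 TPM in SlLBD40-KO, against 320, 77.05 and 134 TPM in WT, and its r with AGL11 was 0.960. Next came an oxidoreductase gene (Solyc12g056800, r = 0.989) and a gene of the 2-oxoglutarate and iron-dependent oxygenase family (Solyc01g080530, r = 0.983). The oxygenase gene kept between 15.3 and 26.8 TPM in SlLBD40-KO and between 21.3 and 24.8 TPM in WT, so a like pattern did not mean a like size of change.

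For AGL11 the first was a nucleotide and sugar transporter gene (Solyc12g015850, r = 0.998), at 1.61, 15.6 and 0.91 TPM in SlLBD40-KO, against 13.8, 3.75 and 4.09 TPM in WT. A chitin-binding lectin gene (Solyc03g116230, r = 0.992) stood at 1.18, 20.2 and 0.15 TPM in SlLBD40-KO, against 16.0, 2.22 and 3.88 TPM in WT. A strictosidine synthase family gene (Solyc10g079610, r = 0.992) followed, at 18.9, 27.05 and 17.1 TPM in SlLBD40-KO and at 28.1, 21.1 and 21.9 TPM in WT. Among the 39 other MADS-box genes tested, each of MBP3 and AGL11 was the gene most like the other, and a gene described as JOINTLESS (Solyc01g105800) was next for both, with r of 0.919 and 0.924. That gene stood at 0.45, 2.60 and 0.06 TPM in SlLBD40-KO, against 1.28, 1.01 and 0.71 TPM in WT. Next after it came the TDR6 gene (Solyc02g084630, r = 0.801) for MBP3 and Solyc03g006830 (r = 0.865) for AGL11.

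TAG1 was most like a heat shock protein 70 gene (Solyc11g066100, r = 0.990), which encodes a chaperone, a catalase gene (Solyc04g082460, r = 0.984), whose product breaks down hydrogen peroxide, and the gene of protein indeterminate-domain 7 (Solyc03g121660, r = 0.982). The heat shock protein 70 gene stood at 66.9, 82.4 and 62.2 TPM in SlLBD40-KO, against 33.3, 47.7 and 74.8 TPM in WT. Among MADS-box genes the closest to TAG1 were Solyc01g066730 (r = 0.796), the gene described as tomato AGAMOUS 12 (Solyc11g032100, r = 0.745) and jointless (Solyc11g010570, r = 0.720). An r over 0.95 was reached by 33 of 18365 other genes with MBP3, by 29 with AGL11 and by 29 with TAG1. Of these, 8 genes reached it with both MBP3 and AGL11, 24.2% of the first list and 27.6% of the second, and 0 reached it with TAG1 and either of them. That 0 was fixed by the r of TAG1 with MBP3 and with AGL11, which lets no gene reach 0.95 with both. The 8 shared genes likewise depend on the r of MBP3 with AGL11 and are no separate result.

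**Figure D5:**
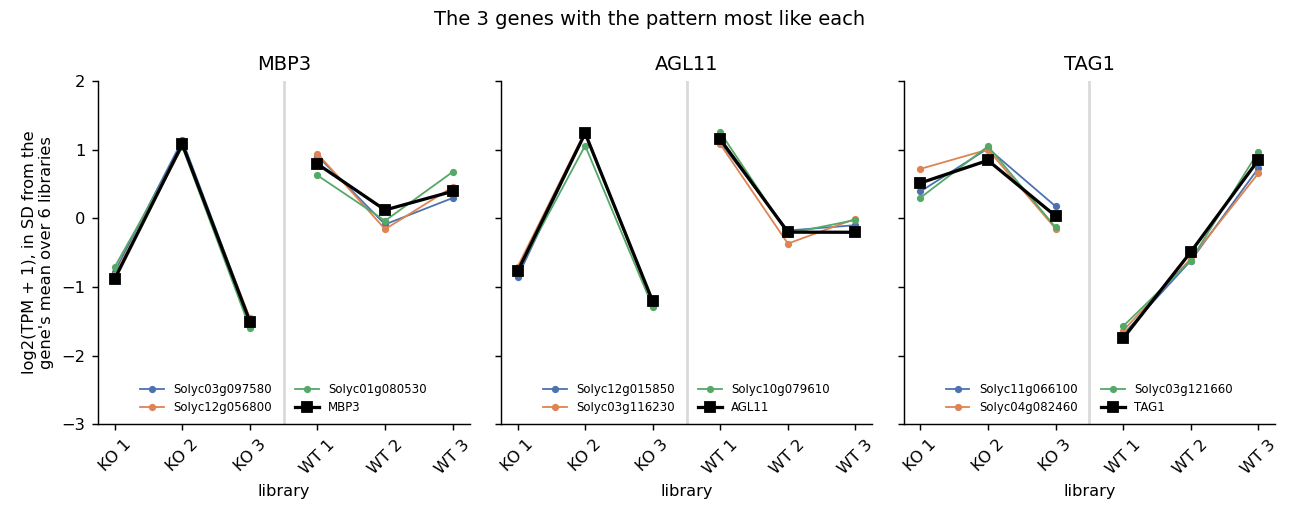
Pattern over the 6 libraries of MBP3, AGL11 and TAG1 (black) and of the 3 genes most like each, as log2(TPM + 1) in standard deviations from the gene's own mean, with SlLBD40-KO left of WT; lines join libraries of 1 genotype for reading only. MBP3 and AGL11 peak in SlLBD40-KO 2 and WT 1, and TAG1 is lowest in WT 1.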

How the data were processed

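The authors deposited 1 table of gene levels for 6 libraries. Its header gives no unit, and the deposited values were taken as TPM because each library sums to just under 1e+06. Cufflinks, StringTie, HISAT2 and TopHat2 appear in the submitters' processing notes, with no step assigned to any of them. Genome build and annotation: not given in the sources used here. Columns were assigned to a genotype by their name, and 0 value columns were left unmapped.

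Values were log2-transformed after adding 1, and genes reaching 1 TPM in 3 or more libraries were tested by limma (version 3.58.1, R 4.3.3, trend option). The p-values were Benjamini-Hochberg adjusted over all 18368. Called means an adjusted p under 0.05. Exact permutation tests, correlations and figures used Python 3.11.15, scipy 1.17.1 and matplotlib 3.10.9. Adding 1 understates changes of low genes. The limma fit and the exact tests were tested on simulated data. Labels call the libraries biological replicates. The limma p-values set the genotype difference against the spread between libraries within a genotype. The exact tests permute the libraries.

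The genes and lists were chosen with earlier results of these data known, and description patterns for seed and ovule genes were corrected after the table was seen. Floral MADS-box identifiers were written from memory and checked against the table's descriptions. Genes named besides the 3 were the 3 of lowest p, of highest r or, for markers, of highest mean in their list, with TAGL1, RIN and the SEPALLATA genes. An oleosin gene, caleosin genes and an oil body-associated protein gene were also named, after their values were seen. The alternatives were leaving out each library, both storage-rich libraries, a pseudocount of 0.1, median-ratio scaling, no filter, a filter of 5 TPM, limma's robust option and the seed level as covariate.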

Additional observations from a re-analysis of the deposited data

How the results depend on the processing

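No paired analysis was possible because the columns carry no replicate numbers of the labels. MBP3 and TAG1 kept their direction and stayed uncalled in each of 13 alternatives (limma adjusted p from 0.137 to 0.881, and from 0.347 to 0.943). With single libraries left out, the log2 fold change ran from -3.52 to -0.73 for MBP3, from -2.12 to -0.03 for AGL11 and from 0.12 to 0.66 for TAG1. AGL11 turned to 0.37 in 1 of 12 alternatives, without both storage-rich libraries, and could not be fitted with the filter of 5 TPM, which it did not pass. The cause of the turn was not tested. On the log2(TPM + 1) scale the genotype difference in the ratio of AGL11 to TAG1 ran from -2.43 to -0.20 with single libraries left out. It turned to 0.26 without both storage-rich libraries. The r of MBP3 with AGL11 ran from 0.901 to 0.971 with single libraries left out, and was 0.944 with a pseudocount of 0.1, where its adjusted p of 0.00833 passed (0.00833 to 0.500 over the alternatives, the highest with 4 libraries). The r with TAG1 ran from -0.465 to 0.403 for MBP3 and from -0.755 to 0.439 for AGL11 with single libraries left out. Without both storage-rich libraries these were 0.513 and 0.527, and over deviations from genotype means MBP3 with TAG1 was 0.135. Limma called 0 genes of each MADS-box and ovule list in the 13 alternatives, but it called 0 of all genes in 4 of them (without SlLBD40-KO 1, without WT 3, without both storage-rich libraries, no filter), where the count was fixed. Under median-ratio scaling the median over all genes tested was 0.015 in place of -0.087, and over the 17 floral genes 0.107 in place of 0.0040 (log2 fold change). TPM gives no depth, so low values carry an unknown counting error.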

Other observations

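Other regulators had on-and-off values across the libraries and were chosen after their values were seen. Solyc06g035570, described as a MADS-box transcription factor, was listed at 0, 28.1 and 0 TPM in SlLBD40-KO 1 to 3 and at 0, 21.4 and 27.5 TPM in WT 1 to 3. It shares the high value of SlLBD40-KO 2 with MBP3 and AGL11 but is listed at 0 in WT 1, where those are high. A gene described as the transcriptional regulator SUPERMAN (Solyc09g011110), known in Arabidopsis for the boundary between stamens and carpels and for ovule integument growth, was listed at 0, 13.3 and 0 TPM in SlLBD40-KO and at 0, 1.90 and 1.22 TPM in WT.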
